A study of Mus musculus with 20 samples.

Results

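Brain endothelium, the single layer of cells that lines the vessels of the brain, was compared by bulk RNA sequencing between mice of 24 months and mice of 3 months. The comparison took every brain library of the study, 3 at 24 months and 3 at 3 months, which is 6 of the 18 libraries that the study made from brain, heart and kidney endothelium. All 46078 gene rows of the brain count table entered, of which 21059 held a count in brain. The mice of both ages were wild-type C57BL/6, and the labels name no other allele or agent for either age, so age is the labelled difference between the groups. Per the labels' protocols, the tissue was digested with collagenase and DNase, cells that carry CD31 were enriched on antibody-coated magnetic beads, and a cell sorter then kept cells positive for CD31 and negative for GP38 and CD45. These cells were not cultured before RNA was taken. The labels do not say whether a library holds 1 animal or a pool, nor that the libraries of an age came from separate animals, so every p-value below measures the spread between libraries.

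Endothelium of the brain forms the blood-brain barrier: its cells are sealed to each other by tight junctions, carry little material across in vesicles, and feed the tissue through solute carriers such as the glucose transporter encoded by Slc2a1. Wnt signals from the surrounding tissue, read through beta-catenin, keep this barrier programme on. Along a vessel the cells differ in order from artery through capillary to vein, and like nearly all nucleated cells they show peptides to T cells on major histocompatibility complex (MHC) class I molecules.

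The total count over genes was 42161982 to 43581356 in the libraries of 3 months and 39155805 to 60492548 in those of 24 months. Levels below are CPM, the count a gene would have in a library of 1000000 counts, with library sizes scaled by the trimmed mean of M-values (TMM), and a set of 3 values always lists the libraries numbered 1, 2 and 3 of 1 age. Pecam1, which encodes CD31, was at 1501, 1096 and 1407 CPM at 3 months and 1535, 1337 and 1483 CPM at 24 months. Ptprc, which encodes the leukocyte protein CD45 used to discard cells, was at 0.692, 0 and 6.71 CPM at 3 months and 0, 1.96 and 2.36 CPM at 24 months, and Pdpn, which encodes GP38, was listed at 0, 0 and 0.296 CPM and 0, 0 and 0.03399 CPM. RNA of the sorted marker was thus well represented in every library. That of GP38 was near 0, and that of CD45 varied between libraries, up to 6.71 CPM in young library 3. Pairs of libraries of the same age correlated across genes at 0.902 to 0.927 and pairs of different ages at 0.891 to 0.926, on log2 CPM. Those ranges overlap, and the biological coefficient of variation that edgeR estimated was 52.2%. Library 1 of each age stood apart from the others of its age in 9 genes, each over 3-fold higher there than in both others (Wnt11, Fkbp5, Lao1, Lcn2, Map3k6, Lrg1, Spon1, Serpina3f and Zbtb16). One of these is Fkbp5, a chaperone partner that glucocorticoids induce, at 109, 8.497 and 13.04 CPM at 3 months and 121, 26.5 and 15.1 CPM at 24 months.

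Of 14696 genes with enough counts to test, 2 rose with age and none fell at an adjusted p under 0.05 in edgeR's quasi-likelihood test, which is 0.0136% of the genes tested. They were H2-Q7, a class I-like gene of the MHC, and Acsl6, an enzyme that activates long-chain fatty acids by joining them to coenzyme A. At an unadjusted p under 0.05, 724 genes were higher at 24 months (4.93% of those tested) and 491 lower (3.34%). The 3 old libraries all lay above the 3 young ones in 1006 genes (6.85%) and all below them in 925 genes (6.29%). The median log2 fold change over all genes tested was -0.0025, with 7302 genes higher and 7394 lower. DESeq2 on the same counts called 149 genes higher (1.01%) and 56 lower (0.381%), and each of those 205 genes was free of overlap between old and young libraries. An edgeR fit of all 18 libraries, which shares the estimate of spread among the organs, called 14 genes higher (0.0762% of 18369) and 6 lower (0.0327%) for age in brain. Counts of genes below should be read against these shares.

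H2-Q7 (ENSMUSG00000060550, GRCm38 chr17:35439155-35443773, plus strand, protein coding) belongs to the Qa genes, relatives of the classical class I genes that present peptides. It was at 7.13, 9.28 and 8.67 CPM in the young libraries and at 58.9, 54.04 and 49.5 CPM in the old ones. The lowest old library was over 5 times the highest young one. The means were 8.36 ± 1.11 and 54.2 ± 4.68 CPM (SD, n = 3 each), 6.48-fold apart, with a log2 fold change of 2.69 (SE 0.20, edgeR adjusted p = 0.0115). Acsl6 (ENSMUSG00000020333, GRCm38 chr11:54303798-54364756, plus strand, protein coding) was at 1.57, 6.13 and 2.37 CPM in the young libraries and at 45.1, 50.3 and 43.3 CPM in the old ones. All 3 old libraries sat close together and far above the young ones, of which library 2 was highest. Its means were 3.36 ± 2.43 and 46.2 ± 3.62 CPM (SD, n = 3 each), 13.8-fold apart, with a log2 fold change of 3.76 (SE 0.35, edgeR adjusted p = 0.0341). DESeq2 gave adjusted p-values of 6.71e-35 for H2-Q7 and 1.13e-12 for Acsl6, and the edgeR fit of 18 libraries gave 1.19e-05 and 0.02101. Leaving out any 1 library ended the edgeR call of H2-Q7, and leaving out any 1 except young library 2 ended that of Acsl6, while over all 18 alternatives the log2 fold change stayed between 2.52 and 2.77 for H2-Q7 and between 3.43 and 4.54 for Acsl6.

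The young libraries 1 and 3 and the old library 1 were sequenced on lane 2, and the other brain libraries on lane 3, as the run names in the labels give it. Within lane 2 the difference of log2 levels was 2.88 for H2-Q7 and 4.45 for Acsl6, and within lane 3 it was 2.47 and 2.91. Both genes were therefore higher at 24 months on each lane. With lane as a term in edgeR the adjusted p-values were 0.066 and 0.119, and no gene passed.

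Other class I genes beside H2-Q7 on chromosome 17 were also higher at 24 months, by less. H2-Q6, the neighbour of H2-Q7 (GRCm38 chr17:35424850-35430055, plus strand), was at 15.9, 27.3 and 28.8 CPM at 3 months and 101, 154 and 128 CPM at 24 months, 5.31-fold between means (log2 fold change 2.40, SE 0.25, edgeR adjusted p = 0.0501), and passed in the fit of 18 libraries at 0.000388. H2-Q4 was at 4.44, 5.63 and 3.595 CPM at 3 months and 7.96, 9.599 and 7.77 CPM at 24 months, and H2-Q5, annotated as a polymorphic pseudogene and named here after its values were seen, at 2.004, 2.95 and 1.75 CPM at 3 months and 13.8, 11.9 and 11.5 CPM at 24 months. In all 3 of these genes every old library lay above every young one. H2-K1, a classical class I gene expressed at the cell surface in most tissues, was at 577, 623 and 614 CPM at 3 months and 835, 793 and 808 CPM at 24 months, a log2 fold change of 0.43 without overlap. H2-D1, the other classical gene, was at 1510, 1704 and 1228 CPM at 3 months and 2005, 1695 and 1816 CPM at 24 months, where the ages overlapped. B2m, the light chain that all class I molecules share, was at 1303, 1455 and 1150 CPM at 3 months and 1848, 1609 and 1562 CPM at 24 months, and Nlrc5, a transcriptional activator of class I genes, at 5.32, 9.17 and 14.7 CPM at 3 months and 19.9, 19.3 and 23.9 CPM at 24 months. Both were higher in every old library, by 0.36 and 1.11 on the log2 scale, and neither passed the test. H2-T24 was the member of the class I list that was lower at an unadjusted p under 0.05, at 30.4, 30.01 and 24.96 CPM at 3 months and 16.1, 19.2 and 23.1 CPM at 24 months. Of the 25 tested members of that list, which also holds the peptide-loading genes, 6 were higher and 1 lower at that p, with a median log2 fold change of 0.03. The list as a whole was thus near the median of all genes, and the 6 higher members were H2-Q7, H2-Q6, H2-Q4, H2-K1, B2m and Nlrc5.

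The stretch of 250 bases before the RefSeq start (GRCm38.p6) is shown for 4 class I genes, because the genes differ in how far they stood apart with age. Windows run 5′ to 3′ on the gene's own strand: H2-Q7 chr17:35438905-35439154 (plus), H2-Q6 chr17:35424600-35424849 (plus), H2-Q4 chr17:35379367-35379616 (plus) and H2-K1 chr17:34000348-34000597 (minus). Capitals mark matches, on either strand, to GGGATTNCC (a kappaB-like site), TTTCACTTC (an interferon-response-like site) and TGACGT (the core of a cyclic AMP response element).
H2-Q7: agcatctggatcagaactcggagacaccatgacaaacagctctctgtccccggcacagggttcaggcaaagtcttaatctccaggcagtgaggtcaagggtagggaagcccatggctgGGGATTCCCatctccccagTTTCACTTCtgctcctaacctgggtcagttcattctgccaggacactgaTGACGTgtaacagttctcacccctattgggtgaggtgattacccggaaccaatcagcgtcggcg
H2-Q6: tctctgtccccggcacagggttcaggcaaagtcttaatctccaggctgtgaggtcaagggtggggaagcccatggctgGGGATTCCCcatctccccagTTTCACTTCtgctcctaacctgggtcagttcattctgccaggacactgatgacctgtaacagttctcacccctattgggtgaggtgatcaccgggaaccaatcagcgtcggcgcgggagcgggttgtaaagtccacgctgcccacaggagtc
H2-Q4: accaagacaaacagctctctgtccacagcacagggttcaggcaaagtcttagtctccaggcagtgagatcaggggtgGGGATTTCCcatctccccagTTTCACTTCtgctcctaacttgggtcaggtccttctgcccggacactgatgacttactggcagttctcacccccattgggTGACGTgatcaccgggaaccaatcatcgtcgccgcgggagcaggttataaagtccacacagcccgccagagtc
H2-K1: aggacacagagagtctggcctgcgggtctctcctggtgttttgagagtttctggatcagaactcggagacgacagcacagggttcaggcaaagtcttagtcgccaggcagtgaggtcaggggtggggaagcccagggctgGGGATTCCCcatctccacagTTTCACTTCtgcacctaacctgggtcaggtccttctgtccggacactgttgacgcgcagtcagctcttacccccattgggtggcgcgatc
The kappaB-like match began 132 bases before the start in H2-Q7, 172 in H2-Q6, 173 in H2-Q4 and 110 in H2-K1. The interferon-response-like match followed at 113, 152, 153 and 90 bases, and TGACGT at 64 bases in H2-Q7 and 73 in H2-Q4, with none of these letters in the windows of H2-Q6 and H2-K1. No match overlapped another. In the same stretch of 250 bases, 0.822% of the 32851 RefSeq promoters of that build held GGGATTNCC, 0.402% TTTCACTTC and 6.47% TGACGT. Among the 21 genes of the class I list with a promoter, 5 held the first at any of their starts, 7 the second and 4 the third. Counted in that way, 264, 129 and 1971 of all 27025 genes with a promoter did. The kappaB-like match read GGGATTCCC in H2-Q7, H2-Q6 and H2-K1 and GGGATTTCC in H2-Q4. A match describes letters only, and its part in the levels was not tested.

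Counts of these near-identical genes are uncertain, because reads of 1 can be assigned to another or set aside. Windows of 50 bases were taken from the longest protein-coding transcript of each gene. Of these, 65.1% were found in no other gene for H2-Q7, 65.0% for H2-Q6, 60.8% for H2-Q4, 91.2% for H2-K1 and 98.7% for Acsl6. At 100 bases the shares were 83.6%, 87.0% and 86.1% for the 3 H2-Q genes, with no shared window among 1520 of H2-K1 and 5706 of 5708 windows of Acsl6 unique to it. H2-Q6 and H2-Q7 had 284 windows of 50 bases and 166 of 100 bases in common with each other. The read length is not given in the sources used here.

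Apart from those 2, the genes of lowest p among those whose ages did not overlap (12 in each direction, mean of at least 5 CPM) had edgeR adjusted p-values over 0.05. DESeq2 gave each of the 24 an adjusted p under 0.05. The 24 were picked by p and by lack of overlap in these same libraries, so neither is separate support. Among the higher genes, Rasgrf2, an exchange factor that activates Ras and Rac, was at 7.58, 9.66 and 11.7 CPM at 3 months and 39.6, 53.05 and 40.8 CPM at 24 months, a 4.61-fold difference (log2 2.19, SE 0.24, edgeR adjusted p = 0.0501). Ppl, the cytoskeletal linker periplakin, was at 0.3101, 1.97 and 1.89 CPM at 3 months and 18.6, 12.2 and 18.2 CPM at 24 months, 11.8-fold apart, the widest gap of the higher genes after Acsl6. Both genes passed in the fit of 18 libraries, at adjusted p-values of 0.000925 and 0.00485. Fmo1, a flavin-containing monooxygenase that oxidises foreign compounds, was at 97.6, 93.3 and 94.1 CPM at 3 months and 196, 179 and 208 CPM at 24 months, a difference small in fold (2.05) and tight within each age (SE 0.12, edgeR adjusted p = 0.0645). Atp2a3, a pump that returns calcium to the endoplasmic reticulum, was at 129, 135 and 151 CPM at 3 months and 299, 291 and 265 CPM at 24 months, and Gca, the calcium-binding protein grancalcin, at 20.4, 15.1 and 17.02 CPM at 3 months and 50.4, 55.2 and 48.8 CPM at 24 months. These had edgeR adjusted p-values of 0.0645 and 0.0645. Abcg3, an ATP-binding cassette protein, was at 5.56, 6.104 and 7.03 CPM at 3 months and 20.8, 20.9 and 24.6 CPM at 24 months. Fhl1, a LIM-domain protein, was at 43.3, 35.6 and 36.8 CPM at 3 months and 83.7, 82.3 and 75.6 CPM at 24 months. Cystm1, a small membrane protein, was at 38.3, 44.8 and 42.2 CPM at 3 months and 119, 87.7 and 93.4 CPM at 24 months. The means of these 3 genes were 3.55, 2.09 and 2.398-fold apart, with no overlap of libraries. Stmn2, a microtubule regulator best known from neurons, was at 44.3, 41.6 and 44.4 CPM at 3 months and 135, 110.0 and 89.02 CPM at 24 months.

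The lower genes included transporters and enzymes known from brain capillaries. Mfsd2a (GRCm38 chr4:122946850-122961188, minus strand), which brings docosahexaenoic acid into the brain as lysolipid and limits vesicle transport across the endothelium, was at 747, 754 and 642 CPM at 3 months and 453, 445 and 409 CPM at 24 months (log2 fold change -0.71, SE 0.12, edgeR adjusted p = 0.112). Car4, a carbonic anhydrase on the surface of capillary endothelium, was at 1052, 1225 and 939 CPM at 3 months and 693, 685 and 635 CPM at 24 months (log2 -0.68). Slc7a8, a transporter of neutral amino acids, was at 13.4, 14.6 and 6.098 CPM at 3 months and 0, 0 and 0.03399 CPM at 24 months. It had 2 counts in all at 24 months, so the ratio of summed counts, young over old, was 792.9 with a 95% counting interval of 219.1 to 6554.0. All 3 of these genes were lower in every old library. Serpine2, a serpin that blocks thrombin and plasminogen activators, was at 126, 92.99 and 96.8 CPM at 3 months and 40.4, 55.2 and 47.96 CPM at 24 months (log2 -1.14, SE 0.18, edgeR adjusted p = 0.109). Ivns1abp, a kelch-repeat protein, was at 710.2, 634 and 696 CPM at 3 months and 327, 319 and 422 CPM at 24 months (log2 -0.93, SE 0.14, edgeR adjusted p = 0.106). Sox4, a transcription factor of developing tissue, was at 34.7, 61.1 and 42.96 CPM at 3 months and 17.4, 16.4 and 19.7 CPM at 24 months (log2 -1.37). In the fit of 18 libraries Serpine2, Ivns1abp, Sox4, Slc7a8 and Dok4 passed as lower, together with Prr5. Mfsd2a and Car4 did not pass in that fit (edgeR adjusted p = 0.787 and 0.1125). The remaining genes were also free of overlap, as their selection required. Cpe, which trims prohormones, was at 449.9, 311 and 281 CPM at 3 months and 174, 157 and 158 CPM at 24 months. Dok4, an adaptor below receptor tyrosine kinases, was at 91.8, 117 and 109 CPM at 3 months and 49.1, 61.2 and 45.02 CPM at 24 months. Unc13c, which primes vesicles for release, was at 10.6, 17.9 and 25.7 CPM at 3 months and 4.83, 2.13 and 2.62 CPM at 24 months. The last 3 of the 12 were Lurap1l, Rflnb and the actin regulator Marcksl1, which had DESeq2 adjusted p-values of up to 0.00875.

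**Figure D1:**
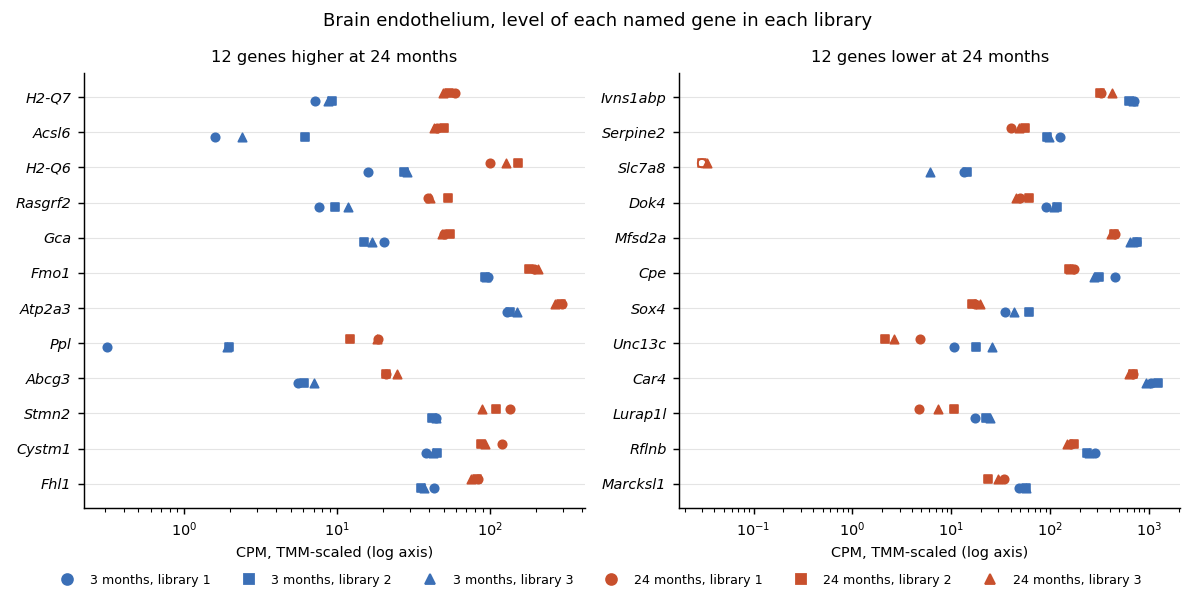
CPM in each brain library, on a log axis, of the 24 genes of lowest p whose ages do not overlap, 12 higher and 12 lower at 24 months; each point is 1 library, coloured by age. H2-Q7, Acsl6 and Ppl show the widest gaps among the higher genes, and Slc7a8, drawn with open symbols at the left edge where a library had no count, among the lower ones.

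Genes were then grouped by known role in 47 lists, chosen with earlier results of these data known. Over all genes tested, 4.93% were higher and 3.34% lower at an unadjusted p under 0.05. Without overlap the shares were 6.85% higher and 6.29% lower. The counts of each list are to be read against these shares. The genes of the immediate early response, which cells switch on within minutes of growth factors, flow or stress, were mostly higher at 24 months. Of 36 tested members 33 were higher, 18 higher and 1 lower at an unadjusted p under 0.05, and 21 higher and 2 lower without overlap, with a median log2 fold change of 0.46. Fosl1, a partner of Jun proteins, was at 7.75, 10.3 and 9.88 CPM at 3 months and 21.3, 20.7 and 20.7 CPM at 24 months (log2 1.16, edgeR adjusted p = 0.2098). Csrnp1, a nuclear protein induced by growth signals, was at 484, 588 and 513 CPM at 3 months and 971, 687 and 944 CPM at 24 months, and Atf3, a stress-induced transcription factor, was at 885, 1122 and 1058 CPM at 3 months and 1803, 1313 and 1404 CPM at 24 months. All 3 were higher in every old library, and none passed the test. Egr4, a zinc-finger factor, was at 0.692, 1.14 and 0 CPM at 3 months and 6.39, 2.01 and 10.3 CPM at 24 months. Dusp6, a phosphatase that switches off ERK, was the member lower at that p, at 659, 724 and 620.3 CPM at 3 months and 505, 586 and 541 CPM at 24 months. Fos, the partner of Jun in the AP-1 factor, was at 5336, 5984 and 5347 CPM at 3 months and 8642, 7088 and 8451 CPM at 24 months, a log2 fold change of 0.54. The summed level of the list was 46750, 52080 and 49990 CPM at 3 months and 67410, 58830 and 67580 CPM at 24 months. On lane 2 alone the median was 0.45 and on lane 3 alone 0.34, and without library 1 of both ages 19 members were higher and 0 lower at that p. The count was 12 without old library 3.

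Genes of the hypoxia response and of glycolysis were likewise mostly higher: 28 of 35 tested, 11 of them and 0 lower at an unadjusted p under 0.05, with a median of 0.27. Hif1a, the oxygen-regulated subunit of the factor that drives this response, was at 194, 168 and 196 CPM at 3 months and 338, 307 and 342 CPM at 24 months (log2 0.82, SE 0.12, edgeR adjusted p = 0.106), and passed in the fit of 18 libraries. Its targets Ankrd37, at 41.5, 49.1 and 50.1 CPM at 3 months and 75.5, 75.8 and 102 CPM at 24 months, and Bnip3, a mitophagy receptor at 91.9, 82.4 and 73.4 CPM at 3 months and 276, 125 and 142 CPM at 24 months, were higher in every old library. Pfkfb3, which sets the pace of glycolysis, was at 82.5, 102 and 113 CPM at 3 months and 146, 131 and 169 CPM at 24 months, and Aldoa, a glycolytic enzyme, at 500.2, 521 and 448 CPM at 3 months and 777, 603 and 611 CPM at 24 months. Vegfa, the growth factor most often used to read this response, was at 30.9, 35.3 and 31.3 CPM at 3 months and 36.5, 34.4 and 34.5 CPM at 24 months, and its ages overlapped. Without young library 3 the count at that p was 6, and without old library 3 it was 7. Counts of Gapdh and Pgk1, which have many near-identical copies in the genome, are uncertain and were under 20 CPM.

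Among genes of the TGF-beta and BMP pathway, 6 of 23 were higher at an unadjusted p under 0.05 and 0 lower, with a median of 0.30. The ligand Bmp4 was at 6.49, 2.93 and 4.98 CPM at 3 months and 15.1, 13.1 and 17.7 CPM at 24 months (log2 1.70, edgeR adjusted p = 0.212). The receptor Bmpr1a was at 10.9, 8.63 and 9.38 CPM at 3 months and 17.9, 16.9 and 17.1 CPM at 24 months. Ltbp4, which stores latent TGF-beta in the matrix, was at 2524, 2685 and 2913 CPM at 3 months and 3484, 3743 and 4111 CPM at 24 months. In these 3 genes every old library lay above every young one. Smad7, an inhibitor that the pathway itself induces, was at 174, 145 and 134 CPM at 3 months and 230.4, 170.5 and 216 CPM at 24 months, where the ages overlapped. Without old library 3 the count at that p was 3. Of 19 circadian genes, 5 were higher at that p and 0 lower, against 3 higher without old library 2 or old library 3 and 9 without library 1 of both ages. Per2, a repressor of the clock, was at 24.5, 28.2 and 30.4 CPM at 3 months and 45.7, 59.2 and 55.7 CPM at 24 months, and Bhlhe40, which represses clock genes, was at 679, 885 and 696 CPM at 3 months and 1327, 1223 and 1197 CPM at 24 months. The circadian median was 0.21 in all libraries, but -0.02 on lane 2 and 0.41 on lane 3.

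The solute carriers of the barrier were mostly lower at 24 months: 22 of 25, of which 6 at an unadjusted p under 0.05 against 1 higher, with a median of -0.23. Mfsd2a is 1 of those 6. Slco2b1, an organic anion transporter, was at 586, 539 and 637 CPM at 3 months and 453, 361 and 461 CPM at 24 months (log2 -0.47). Slc29a1, which moves nucleosides, was at 64.95, 70.2 and 56.1 CPM at 3 months and 39.99, 38.9 and 51.1 CPM at 24 months (log2 -0.55). The ages did not overlap in either gene, and neither passed the test (edgeR adjusted p = 0.385 and 0.428). Slc38a5, a glutamine carrier, was at 499, 768 and 510.0 CPM at 3 months and 478, 417 and 419 CPM at 24 months, and Slc52a3, a riboflavin carrier, at 355, 315 and 206 CPM at 3 months and 230.1, 185 and 147 CPM at 24 months, the latter with overlap. Slc6a6, which carries taurine, was the higher member at 1318, 1905 and 1839 CPM at 3 months and 2017, 2647 and 2538 CPM at 24 months. Slc2a1, the glucose transporter, was at 8118, 4633 and 4236 CPM at 3 months and 7414, 4650 and 4689 CPM at 24 months, with library 1 high at both ages. In libraries 2 and 3 both old values lay above both young ones. The fold change was near 0 (log2 -0.02, SE 0.28), and its sign changed in several fits, among them that without library 1 of both ages. Slc7a5, the main carrier of large neutral amino acids, was at 2802, 2123 and 2256 CPM at 3 months and 2052, 1571 and 2095 CPM at 24 months, lower in every old library by -0.33 on the log2 scale (edgeR adjusted p = 0.666). The median was -0.30 on each lane, and 3 members were lower at that p without old library 2, without old library 3 or without young library 2. The summed level overlapped between ages, at 29800, 29250 and 27910 CPM and 26990, 26130 and 28290 CPM.

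Targets and parts of the Wnt pathway were split. Of 24 tested, 5 were lower and 0 higher at an unadjusted p under 0.05, with a median of -0.11. Znrf3, a ligase that removes Wnt receptors and is itself a Wnt target, was at 23.02, 20.4 and 23.9 CPM at 3 months and 6.05, 14.5 and 11.2 CPM at 24 months (log2 -1.08, edgeR adjusted p = 0.3601). Nkd1, an inhibitor that is also a target, was at 352, 479 and 421 CPM at 3 months and 294, 313 and 317 CPM at 24 months. Apcdd1, another such inhibitor, was at 799, 1093 and 1035 CPM at 3 months and 551, 694 and 806 CPM at 24 months. Tcf7, a factor that reads beta-catenin, was at 254, 240.2 and 275 CPM at 3 months and 164, 196 and 228 CPM at 24 months. Znrf3, Nkd1 and Tcf7 were lower in every old library, while the highest old value of Apcdd1 lay above its lowest young one. Lef1, another such factor, was at 491, 562 and 600.4 CPM at 3 months and 480.1, 539 and 589 CPM at 24 months, and Axin2, the usual reporter of the pathway, was at 17.3, 26.4 and 27.99 CPM at 3 months and 17.7, 22.4 and 28.2 CPM at 24 months. The ages overlapped in both. The count of lower members was 2 without old library 1, without young library 2 or without young library 3.

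Junctions, efflux pumps and vesicle transport showed few differences. Cldn5, the main claudin of the barrier, was at 2615, 2886 and 2556 CPM at 3 months and 2199, 2001 and 2131 CPM at 24 months (log2 -0.35, edgeR adjusted p = 0.415), lower in every old library, and of 22 tested junction genes 2 were lower and 0 higher at an unadjusted p under 0.05. The efflux pump P-glycoprotein, encoded by Abcb1a, was at 730.4, 756 and 975 CPM at 3 months and 753, 1052 and 984 CPM at 24 months. Abcg2, the other main pump, was at 1335, 1278 and 1214 CPM at 3 months and 1308, 1308 and 1149 CPM at 24 months. The ages overlapped in both pumps. On the list of pumps and receptors 1 of 20 members was higher and 1 lower at that p. The lower one was Abcc6, another ATP-driven transporter, at 89.8, 104 and 99.6 CPM at 3 months and 56.5, 73.01 and 75.5 CPM at 24 months. The higher one was Abcc4, a pump of organic anions, at 496, 352 and 477 CPM at 3 months and 562, 529.8 and 598 CPM at 24 months. Neither overlapped between ages. Without old library 1, 4 members were lower and 0 higher. None of 16 genes of caveolae and transcytosis had an unadjusted p under 0.05 in edgeR, although 13 were higher, as Cav1 at 761, 1068 and 955 CPM at 3 months and 1050, 1168 and 1289 CPM at 24 months.

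Among markers of the order along the vessel, several of lowest p were Stmn2, Mfsd2a and Car4 described above, together with Vwf, the clotting factor stored by venous and large-vessel endothelium, and Alpl, an alkaline phosphatase. Vwf was at 579, 411 and 532 CPM at 3 months and 984, 1051 and 1237 CPM at 24 months (log2 1.10, SE 0.16, edgeR adjusted p = 0.106). Alpl was at 593, 731 and 589.7 CPM at 3 months and 998, 1141 and 1119 CPM at 24 months (log2 0.77, SE 0.13, edgeR adjusted p = 0.121). In both the lowest old library was above the highest young one. Bmx, a kinase of arterial endothelium, was at 78.2, 127 and 92.95 CPM at 3 months and 132, 183 and 142 CPM at 24 months. At an unadjusted p under 0.05, 3 of 16 venous markers were higher and 1 lower, 3 of 20 arterial markers higher and 0 lower, and 0 of 15 capillary markers higher and 2 lower, with medians of 0.24, 0.02 and 0.00. The 2 lower capillary markers were Mfsd2a and Car4. Without young library 1, 7 venous markers were higher, and without old library 3, 1 was. Of the matrix genes, Adamts1, a secreted protease that cuts proteoglycans, was at 2101, 1951 and 2147 CPM at 3 months and 3329, 3424 and 3292 CPM at 24 months (log2 0.70, SE 0.10, edgeR adjusted p = 0.106), and Sparc, a collagen-binding protein, at 2762, 2784 and 1933 CPM at 3 months and 1720, 1499 and 1385 CPM at 24 months (log2 -0.70). Both were without overlap, in opposite directions, and over the 31 tested matrix genes 3 were higher and 2 lower at that p. The higher count depended on the libraries: it was 6 without old library 1, 7 without young library 1, 8 without library 1 of both ages, and 1 without old library 3 or young library 2. Without library 1 of both ages, 6 arterial and 7 venous markers were higher. C4b, a complement component, was at 8.18, 0.291 and 4.78 CPM at 3 months and 16.00, 23.9 and 31.4 CPM at 24 months, and Aplnr, the apelin receptor, at 18.9, 37.9 and 16.5 CPM at 3 months and 8.13, 9.39 and 4.32 CPM at 24 months.

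**Figure D2:**
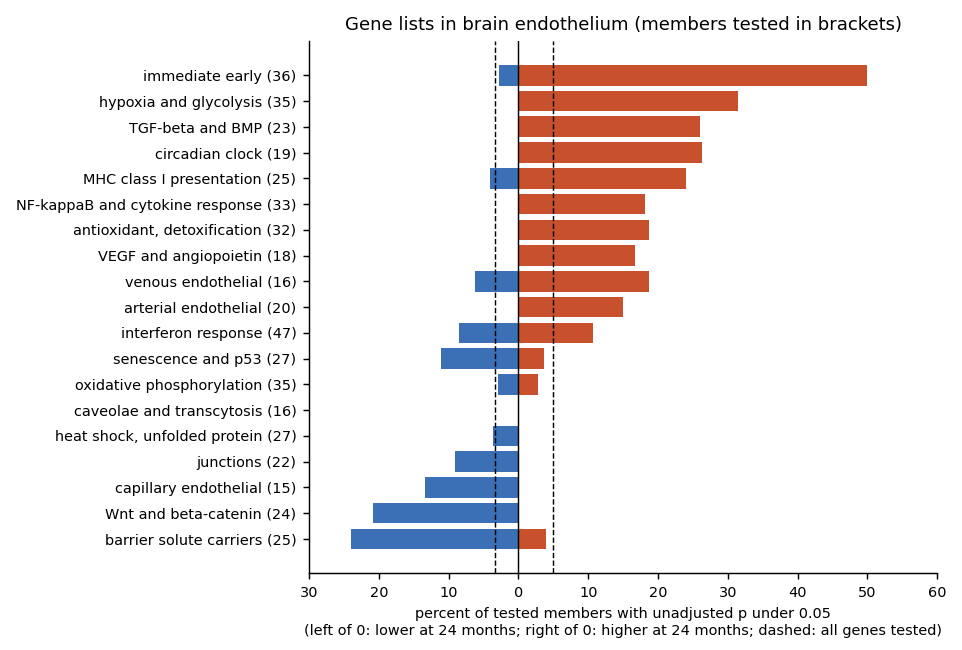
Percent of the tested members of each list with an unadjusted p under 0.05, drawn to the left where lower and to the right where higher at 24 months; dashed lines mark the shares over all genes, 3.34% lower and 4.93% higher. Of the lists drawn, the immediate early list and the hypoxia and glycolysis list reach farthest to the right, and the barrier carriers and Wnt list to the left.

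**Figure D3:**
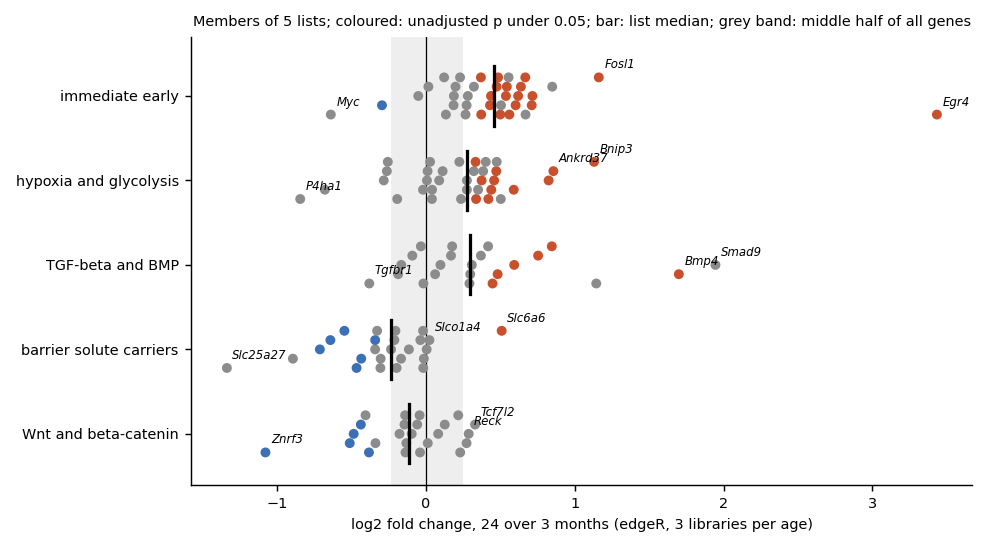
Log2 fold change, 24 over 3 months, of each tested member of 5 lists; coloured points have an unadjusted p under 0.05, bars are medians and the grey band holds the middle 50% of all genes tested. Immediate early and hypoxia genes sit mainly above 0 and barrier carriers mainly below, with medians of 0.46, 0.27 and -0.23.

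Genes that respond to interferons showed no common direction. Of 47 tested, 5 were higher and 4 lower at an unadjusted p under 0.05, with a median of -0.04. Irf8, an interferon-regulated transcription factor best known from myeloid cells, was at 2.19, 2.57 and 4.57 CPM at 3 months and 18.4, 9.85 and 8.09 CPM at 24 months. Cd274, the checkpoint ligand PD-L1, was at 28.4, 44.8 and 50.04 CPM at 3 months and 62.6, 92.1 and 84.98 CPM at 24 months, and Irgm1, a GTPase of cell-autonomous immunity, was at 161, 255 and 265 CPM at 3 months and 309, 389 and 491 CPM at 24 months. These 3 were higher in every old library. Ifi44, another induced gene, was lower in every old library, at 50.6, 72.3 and 47.5 CPM at 3 months and 27.3, 44.3 and 30.3 CPM at 24 months, and so was Samhd1, which breaks down deoxynucleotides, at 107, 85.5 and 93.3 CPM at 3 months and 81.8, 67.04 and 68.9 CPM at 24 months. The counts came to 4 higher and 0 lower without old library 3. Of 33 tested NF-kappaB and cytokine response genes, 6 were higher and 0 lower at that p (median 0.17), among them Tnfaip3, which dampens NF-kappaB, at 74.5, 137 and 145 CPM at 3 months and 212, 211 and 234 CPM at 24 months. Il1b, the cytokine interleukin-1 beta, was at 0, 0.0224 and 0 CPM at 3 months and 1.77, 0.813 and 0.816 CPM at 24 months. Of 11 tested MHC class II genes, which mark antigen-presenting cells and some activated endothelium, 2 were higher at that p and 0 lower, with a median of 0.76. Without young library 3 the counts were 4 and 1 and the median 1.26, and without young library 1 or young library 2 a single member was higher. H2-Ab1 was at 4.39, 4.204 and 4.12 CPM at 3 months and 12.9, 9.29 and 8.89 CPM at 24 months, and Cd74, the class II chaperone, at 4.17, 6.51 and 22.7 CPM at 3 months and 20.9, 13.7 and 21.6 CPM at 24 months, where young library 3 reached the old ones. Of 18 tested microglial and macrophage markers 7 were higher and 11 lower, with a median of -0.32. At that p 2 of them were higher and 0 lower. Adgre1, which marks macrophages, was at 0.262, 0.179 and 0 CPM at 3 months and 2.105, 0.889 and 1.65 CPM at 24 months, higher in every old library (log2 3.41, edgeR adjusted p = 0.263). The other was Pf4, which the platelet list also holds. Levels of Ptprc showed no order by age, and the part of macrophage or leukocyte RNA in the values of Irf8, Il1b and the class II genes was not tested.

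Most other lists held few members past an unadjusted p under 0.05, where 4.93% of all genes tested were higher and 3.34% lower. Of 29 senescence and p53 genes 27 were tested, with 1 higher and 3 lower at that p. The higher one was Pmaip1, a p53 target that promotes cell death, at 230.3, 188 and 165 CPM at 3 months and 358, 255 and 342 CPM at 24 months. The lower ones were Zmat3, Cdkn2b and Aen (log2 -1.77, -0.51 and -0.54), each lower in every old library. Oxidative phosphorylation had 1 higher and 1 lower of 35, sterol synthesis 0 of 20 in edgeR, fatty acid metabolism 1 and 1 of 27 (Acsl6 was not on that list), Notch signalling 0 of 15, and ribosomal proteins 0 higher and 1 lower of 30. VEGF signalling had 3 higher and 0 lower of 18, glucocorticoid response 3 and 0 of 23, vasoactive genes 3 and 0 of 21, leukocyte adhesion 2 and 1 of 18, complement 2 and 1 of 15, haemostasis 1 and 1 of 18, tip cell genes 1 and 2 of 18, the cell cycle 2 and 0 of 22 and sirtuin and mTOR genes 2 and 1 of 24 at that p. Such counts are small, and leaving out 1 library moved several by over 1.5 times: VEGF signalling ranged from 1 to 5 higher, leukocyte adhesion from 1 to 5, and sirtuin and mTOR genes from 1 to 4. The glucocorticoid list, to which Fkbp5 relates, had a median of 0.13, which became 0.53 with 6 higher without young library 1, -0.08 with 2 higher and 1 lower without old library 1, and 0.25 with 4 higher and 1 lower without library 1 of both ages. Of 7 tested genes of the mitochondrial genome 2 were higher at that p, with all 7 higher by log2 fold change on each lane. That count was 6 without old library 3, which exceeded the highest young library in none of these genes, and 0 without library 1 of both ages. mt-Co1, a subunit of cytochrome oxidase, was at 832, 1014 and 744 CPM at 3 months and 1741, 1527 and 997 CPM at 24 months. The antioxidant and detoxification list stood higher, with 6 of 32 tested members higher and 0 lower, Fmo1 among them. Its member Cyp1b1, a cytochrome P450 of endothelium, was at 24.6, 2.19 and 10.7 CPM at 3 months and 46.3, 46.4 and 40.6 CPM at 24 months. Heat-shock and unfolded protein genes had a median of -0.30 with 1 of 27 lower at that p, and a median of 0.04 without young library 1. Nr3c2, the mineralocorticoid receptor, was at 21.3, 22.2 and 15.6 CPM at 3 months and 29.5, 71.2 and 57.3 CPM at 24 months.

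Markers of other cell types were present in every library, and those of platelets and neurons were higher in some or all old libraries. As in any bulk sample, fewer cells of a type and less RNA per cell cannot be told apart. Of 13 tested platelet genes, 9 were higher and 0 lower at an unadjusted p under 0.05, with a median of 2.02. Their summed level was 18.6, 30.1 and 33.6 CPM at 3 months and 113, 24.8 and 96.3 CPM at 24 months. Old libraries 1 and 3 were high and old library 2 lay among the young ones. Itga2b, the integrin that defines platelets and megakaryocytes, was at 1.55, 6.51 and 6.53 CPM at 3 months and 27.98, 2.95 and 26.99 CPM at 24 months, and Pf4, a platelet chemokine, at 0.525, 0.917 and 1.62 CPM at 3 months and 5.29, 1.07 and 3.98 CPM at 24 months. The count at that p was 3 without young library 1 or without library 1 of both ages, and 4 without old library 1, old library 3 or young library 2. The part of platelet RNA in the other differences was not tested. H2-Q7 and Acsl6 were as high in old library 2 as in the others.

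Of the 17 neuron markers 10 were tested and 2 were higher at an unadjusted p under 0.05. These were Stmn2, which the arterial list also holds, and Map2, a microtubule protein of dendrites, at 2.46, 2.24 and 1.71 CPM at 3 months and 9.54, 7.06 and 5.08 CPM at 24 months. Summed neuron markers were 61.6, 51.96 and 59.05 CPM and 165, 134 and 118 CPM, most of it Stmn2. Nefm and Slc32a1 were listed at 0 in all 6 libraries, and Rbfox3, Snap25 and Syt1 did not exceed 2.2 CPM. Astrocyte markers summed to 587, 458 and 497 CPM and 587, 541 and 516 CPM, and pericyte markers to 914, 1125 and 1284 CPM and 1120, 973 and 1012 CPM. Microglial markers summed to 66.6, 89.5 and 56.5 CPM and 87.5, 72.9 and 83.5 CPM. The sums of these 3 types overlapped between ages, as did those of leukocytes, at 111, 99.8 and 145 CPM and 103, 103 and 115 CPM. Of 15 tested leukocyte markers 6 were higher and 9 lower, with a median log2 fold change of -0.28. At an unadjusted p under 0.05, 2 of them were higher and 0 lower. Within that list Cd3e, part of the T cell receptor complex, had no count in the young libraries and was at 0.622, 0.508 and 0.697 CPM in the old ones, at least 27.1-fold higher if 3 counts in the young group are taken as the floor. Pan-endothelial markers summed to 18900, 17070 and 18960 CPM and 19070, 17970 and 18590 CPM, also with overlap. Sums for smooth muscle, oligodendrocytes, red cells, fibroblasts and choroid plexus overlapped between ages as well.

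**Figure D4:**
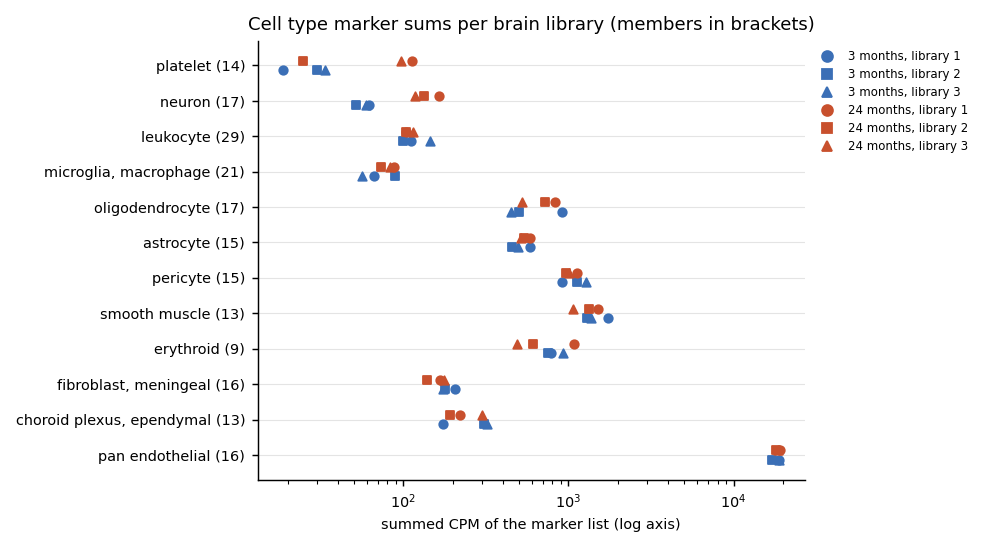
Summed CPM of the marker genes of each cell type in each brain library, on a log axis, coloured by age. The platelet sum is high in old libraries 1 and 3, the neuron sum is higher in all 3 old libraries, and the other sums overlap between ages.

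Whether the age difference of brain endothelium differed from that of heart or kidney endothelium was tested as an interaction in the fit of all 18 libraries, 3 per organ and age. The age field of 1 run of a young heart library reads 4 months, and the run was kept in its group. Titles and run names of the 24-month kidney samples disagree on the library. The 2 kidney runs that were summed carry the same library in their run names, and their counts differed by a chi-square of 1.07 per degree of freedom, against 83.97 or more between other pairs of old kidney runs. Against heart, 1 gene had a more positive age difference in brain (0.00544% of 18369) and 2 a more negative one (0.0109%) at an adjusted p under 0.05. Against kidney these were 4 genes (0.0218%) and 1 gene (0.00544%). H2-Q7 was the gene that passed against both organs, by 1.97 on the log2 scale against heart (SE 0.27, edgeR adjusted p = 0.0236) and by 2.09 against kidney (SE 0.27, edgeR adjusted p = 0.007396). On the scaling of this fit it was at 7.61, 9.87 and 9.27 CPM in young and 63.05, 57.4 and 53.2 CPM in old brain. In heart it was at 51.8, 92.8 and 62.8 CPM at 3 months and 114, 114 and 113 CPM at 24 months. In kidney it was at 77.6, 95.7 and 82.8 CPM (young) and 129.9, 127 and 132 CPM (old). In each organ every old library lay above every young one, so the gene was higher with age in heart and kidney too. Young brain stood far below both other organs, and old brain was near the level of the young heart libraries. The interaction is a difference of ratios and so depends on that low young level. H2-Q6 had interactions of 1.76 and 1.82, which did not pass (edgeR adjusted p = 0.136 and 0.114). Acsl6 was at or near 0 in heart and at no more than 2.59 CPM in kidney at both ages, and neither interaction passed.

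Against kidney, Serpine2 differed most firmly: it was lower in old brain and higher in old kidney. In brain it was at 134, 98.9 and 104 CPM at 3 months and 43.2, 58.7 and 51.5 CPM at 24 months, and in kidney at 290.3, 203 and 228 CPM (young) and 752, 622 and 544 CPM (old). The difference of age effects was -2.54 (SE 0.29, edgeR adjusted p = 0.00215), and it passed with each brain library left out in turn. Ppl was at 0.331, 2.09 and 2.02 CPM (young) and 19.9, 12.9 and 19.6 CPM (old) in brain, against 29.03, 24.4 and 25.96 CPM (young) and 21.6, 22.2 and 23.1 CPM (old) in kidney (difference 3.80, SE 0.61, edgeR adjusted p = 0.0423). Hook1, which links cargo to microtubule motors, was at 0, 0 and 0.511 CPM (young) and 3.76, 6.505 and 10.1 CPM (old) in brain and at 31.5, 29.96 and 43.2 CPM (young) and 19.4, 10.5 and 20.1 CPM (old) in kidney (difference 6.38, edgeR adjusted p = 0.0423). Cystm1 was at 40.8, 47.7 and 45.1 CPM (young) and 128, 93.2 and 100.2 CPM (old) in brain and at 216, 220.2 and 163 CPM (young) and 128, 118 and 169 CPM (old) in kidney (difference 1.79, edgeR adjusted p = 0.0488). Hook1 and Cystm1 were higher in old brain and lower by means in old kidney. Against heart, Gpr160, an orphan receptor, was at 48.5, 64.5 and 63.3 CPM (young) and 63.1, 45.2 and 51.8 CPM (old) in brain and at 20.4, 14.9 and 17.7 CPM (young) and 79.5, 47.1 and 63.9 CPM (old) in heart. Spock2, a matrix proteoglycan, was at 1221, 1352 and 1104 CPM (young) and 1138, 1090 and 1366 CPM (old) in brain and at 6.32, 8.36 and 5.21 CPM (young) and 20.9, 16.8 and 22.5 CPM (old) in heart. Both passed the test (differences -1.98 and -1.68, edgeR adjusted p = 0.0236 and 0.0236), with higher values in every old heart library than in the young ones and overlap of the ages in brain. No interaction other than those of Serpine2 and of H2-Q7 against kidney held in more than 1 of the 6 fits that left out a brain library, and none held without library 1 of both ages.

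The immediate early list had a median age difference of 0.48 in brain, -0.02 in heart and -0.06 in kidney on this fit. Of its 37 members tested there, 7 had a more positive and 1 a more negative age difference in brain than in heart at an unadjusted p under 0.05, where the shares over all genes were 3.34% and 2.89%. Against kidney the counts were 6 and 0, with shares over all genes of 3.00% and 2.28%. For the 38 hypoxia and glycolysis genes the counts were 3 and 0 against heart and 9 and 1 against kidney.

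**Figure D5:**
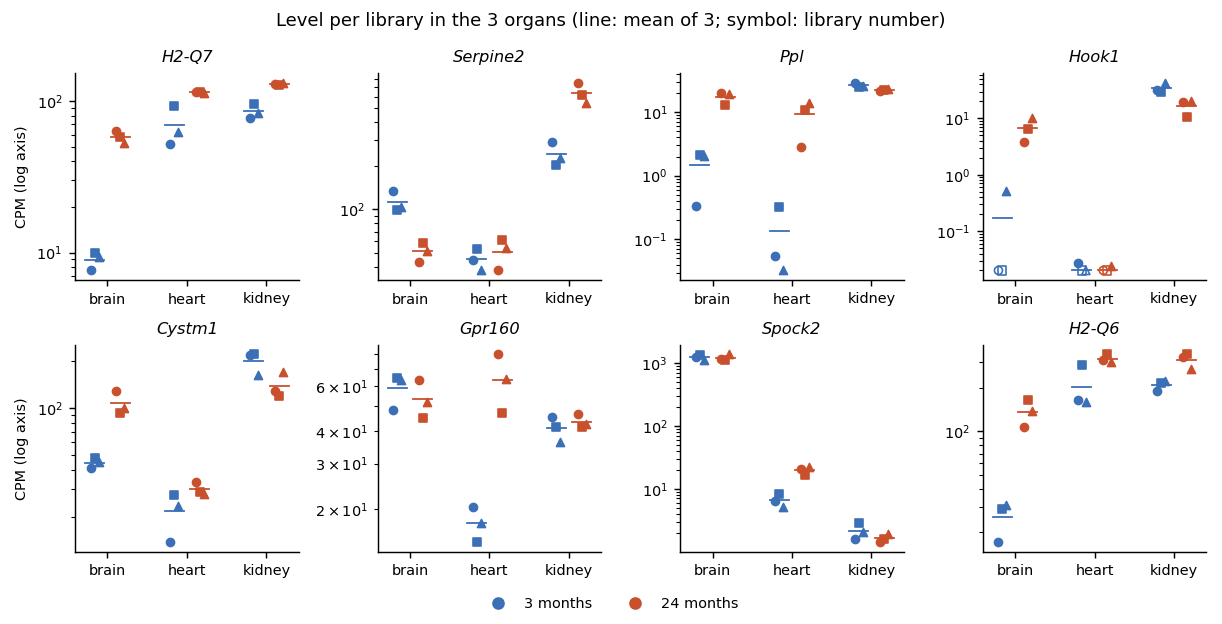
CPM per library, on the scaling of the fit of 18 libraries and a log axis, of 8 genes in brain, heart and kidney endothelium at 3 and 24 months; lines mark the mean of 3 libraries and open symbols stand for values at or near 0, drawn at the floor. H2-Q7 starts far lower in young brain than in the other organs, and Serpine2 goes opposite ways in brain and kidney.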

How the data were processed

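Each library was sequenced from SMART-Seq cDNA, per the labels' protocols. The authors aligned reads with TopHat2 to GRCm38/mm10 and counted them per gene with HTSeq, per the submitters' processing notes; versions, strand setting and annotation are not given in the sources used here. The deposited values are raw counts per Ensembl gene. HTSeq's summary lines stayed out of every sum: in brain they held 3.00 to 4.33% of reads without a feature, 2.98 to 3.28% ambiguous and 19.9 to 22.0% not uniquely aligned. GENCODE M21 gave symbols for 97.97% of gene rows.

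Counts were tested in edgeR 4.0.16 (R 4.3.3) by quasi-likelihood, after filterByExpr (minimum count 10) and TMM scaling, with Benjamini-Hochberg adjustment at 0.05, on the 6 brain libraries; differences of age effects between organs used all 18 libraries, with 2 runs of a library summed. DESeq2 1.42.0, limma 3.58.1, other scalings and filters, lane, replicate block and left-out libraries were alternatives. The fits were also run on simulated counts with a smaller spread than was estimated for brain, so those runs do not gauge their error in these data. Named genes were those past the threshold, the 12 of lowest p per direction without overlap and with a mean of at least 5 CPM, up to 5 per list described, a fixed set, and 5 per direction for each organ difference. Members and lists were chosen with earlier results of these data known. Coordinates are GRCm38 (GENCODE M21), and upstream sequences are from RefSeq (GRCm38.p6). Counting intervals cover counting error only.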

Additional observations from a re-analysis of the deposited data

Results flagged for a closer look

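In 8 cases the age difference of a gene in brain endothelium differed from that in another organ, by an interaction test in edgeR over all 18 libraries (adjusted p under 0.05). Values are log2 differences of age effects, brain minus the other organ. Against heart they were 1.97 for H2-Q7, -1.98 for Gpr160 and -1.68 for Spock2. Against kidney they were 2.09 for H2-Q7, -2.54 for Serpine2, 3.80 for Ppl, 6.38 for Hook1 and 1.79 for Cystm1. Hook1 had no count in young brain libraries 1 and 2, so its fitted value depends on the prior count. Groups of 3 libraries were too small for the search for single libraries that stand apart.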

How the results depend on the processing

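The 2 edgeR calls for age in brain depended on the test and the libraries, with the cause not tested. DESeq2 gave 205 calls and the fit of 18 libraries 20; no filter on low counts and a filter of at least 1 CPM in 3 libraries gave 4 each; limma voom and edgeR's legacy form gave 1 each; other size factors, library totals alone and robust dispersions gave 2 each. A term for lane gave 0 (1193 genes at an unadjusted p under 0.05), and leaving out each library gave 0 to 1. Leaving out library 1 of both ages, chosen after seeing the data, gave 0 (1541 genes at that p). Library totals alone moved the median of all genes to -0.056 and that of the MHC class I list to -0.03. For brain against heart (3 calls), DESeq2 gave 278, left-out libraries 0 to 2, and leaving out library 1 of both ages 0 (1047 genes at that p). For brain against kidney (5 calls), these gave 193, 1 to 5, and 0 (860 genes at that p). Replicate numbers recur at both ages, yet same-numbered libraries deviated together by correlations of only 0.159, 0.0163 and 0.0867, so the numbers were not taken as pairs; the replicate block gave 0 calls in brain (1364 genes at that p), 0 against heart (1239) and 1 against kidney. Among named genes in brain, 5030 comparisons with an alternative kept their side of the threshold, 85 of them with a change of sign in a gene that passed under neither; 76 newly passed and 19 no longer passed, and no called gene reversed. The smallest library held 39155805 counts, so depth limits genes near the floor of 3 counts, such as Slc7a8 at 24 months.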
